A study of Mus musculus with 8 samples.

Results

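Desmosomes are the spot-like junctions that rivet keratinocytes together, and the 10 genes described here encode the parts of them that the epidermis and hair follicle use. They were taken by symbol: Dsg1a, Dsg2 and Dsg3 (desmogleins), Dsc1, Dsc2 and Dsc3 (desmocollins), Dsp (desmoplakin), Jup (plakoglobin), Pkp1 and Pkp3 (plakophilins). All 10 were present among the 23861 genes of the hair follicle stem cell table and the 16231 genes of the epidermal stem cell table. All 10 were tested in both. Low values were filtered out only in the hair follicle stem cell test, and all 10 passed there. Desmogleins and desmocollins are cadherins that cross the membrane and bind those of the neighbouring cell. Plakoglobin and plakophilins are armadillo-repeat proteins that bind the cadherin tails, and desmoplakin ties this plaque to the keratin filaments. In the epidermis Dsg3 and Dsc3 are best known from the basal layers, and Dsg1 and Dsc1 from the differentiating layers above them.

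RNA-seq was carried out on mouse dorsal skin cells sorted in telogen, the resting phase of the hair cycle. Hair follicle stem cells (HFSCs) were CD34+CD49f+Sca-1-, and epidermal stem cells (EpdSCs) were CD34-CD49f+Sca-1+. Each cell type was collected from wild-type (WT) and Msx2-KO mice, with 2 libraries in each of the 4 groups and no treatment in any. Msx2-KO mice carry a neo cassette placed upstream of exon 2 of the homeobox gene Msx2 in both germline alleles, so every tissue of the animal has the allele. By the labels the WT HFSC donors were 2 months old and the Msx2-KO HFSC donors 6 months old, so age and genotype cannot be told apart in HFSCs. Both EpdSC groups were 6 months old. Library names also differ by genotype, in prefix in HFSCs and in number series in EpdSCs, and what the names stand for is not given. A batch, if there was one, could thus not be told apart from genotype in either cell type. The study's methods name the C57BL/6J background for WT mice, and they speak of individual mice as replicates in general but not for these libraries. P-values measure the spread between these libraries, which may be technical.

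HFSC columns summed to between 3132970 and 11016700 estimated counts, and mitochondrial and ribosomal RNA genes took 11.2% and 41.4% of them in the WT libraries against 57.0% and 62.5% in Msx2-KO-labelled libraries. EpdSC columns hold values already scaled by the authors, with totals of 14216500 to 24694400, and here that share was 26.9% and 19.1% in WT against 5.16% and 9.61% in the Msx2-KO-labelled libraries. Genes with a value of at least 1 were fewer in Msx2-KO-labelled libraries in both cell types (HFSCs 11409 and 14251 against 22447 and 19595, EpdSCs 12723 and 14910 against 15865 and 15816). The Msx2 transcript itself did not separate the genotypes. In HFSCs it stood at 7.08 and 2.26 CPM (counts scaled to a fixed library total, with trimmed mean of M-values factors, TMM) in WT against 4.36 and 3.82 in the Msx2-KO-labelled libraries. In EpdSCs the authors' normalized signal was 58.5 and 85.4 in WT against 150.3 and 22.2 in the Msx2-KO-labelled libraries. Counts over the whole gene do not show whether an inserted cassette is present, so the genotype below is that of the labels. Cd34, which defines the HFSC gate, read 491 and 436 CPM in WT HFSCs and 177 and 144 in HFSCs labelled Msx2-KO, and it has no row in the EpdSC table used here. Ly6a, which encodes Sca-1, was present in all 4 EpdSC libraries, from 472 to 3493, and has no row in the HFSC table used here.

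Of the 10 genes, Dsp and Jup matched the RefSeq promoter table (GRCm38.p6). The 250 bases upstream of each start are shown for these 2 plaque genes, whose ratio separated the genotypes in EpdSCs as given below.
Dsp (chr13:38151044-38151293, plus strand): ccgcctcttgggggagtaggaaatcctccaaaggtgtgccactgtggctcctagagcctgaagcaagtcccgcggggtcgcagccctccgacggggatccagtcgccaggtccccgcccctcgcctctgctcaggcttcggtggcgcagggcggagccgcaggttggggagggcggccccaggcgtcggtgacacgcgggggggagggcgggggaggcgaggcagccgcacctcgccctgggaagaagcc
Jup (chr11:100397791-100398040, minus strand): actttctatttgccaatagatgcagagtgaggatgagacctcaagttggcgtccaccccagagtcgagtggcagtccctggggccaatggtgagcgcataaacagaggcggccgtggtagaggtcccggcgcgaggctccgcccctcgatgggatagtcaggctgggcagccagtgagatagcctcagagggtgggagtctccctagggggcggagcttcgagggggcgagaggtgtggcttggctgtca
Nothing is in capitals, because none of the 4 motifs searched on both strands was present in either stretch. The motifs were TAATTG (an Msx-type homeodomain core), AACCNGTT (grainyhead), TGANTCA (AP-1) and CAGACA (Smad-type), and 7.17%, 1.79%, 6.75% and 17.1% of the 32851 promoter stretches of the same length hold them. The Dsp stretch is 72.4% G and C with 22 CG dinucleotides and the Jup stretch 62.0% with 13, against medians of 52.4% and 6.0 over all promoters.

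On GRCm38 the 6 cadherin genes lie in 1 cluster on chromosome 18, from Dsc3 (chr18:19960930-20002351) through Dsc2 (chr18:20030633-20059554), Dsc1 (chr18:20084184-20114871), Dsg1a (chr18:20310811-20343350) and Dsg3 (chr18:20510274-20547459) to Dsg2 (chr18:20558074-20604521). The 3 desmocollins are on the minus strand and the 3 desmogleins on the plus strand. Dsp is on the plus strand of chromosome 13 (chr13:38151294-38198577), Jup on the minus strand of chromosome 11 (chr11:100368958-100397763), Pkp1 on the minus strand of chromosome 1 (chr1:135871395-135919207) and Pkp3 on the plus strand of chromosome 7 (chr7:141078218-141090510). Dsg2 overlaps the antisense gene Gm16090, Dsp overlaps Gm10129 on the other strand and Pkp1 overlaps Gm36938 on its own strand. Whether counting used the strand is not given in the sources used here, so reads of these 3 pairs may be split or shared. Dsg1a has near-identical neighbours, Dsg1b and Dsg1c, among which reads could also be split.

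In HFSCs none of the 10 genes passed the call used here, an adjusted p under 0.05 in edgeR's quasi-likelihood test with a change of more than 2-fold, and neither did any other gene (0% of the 14422 tested). The numbers below are therefore levels and differences, not calls. The Msx2-KO-labelled libraries lay wholly above WT for 4 of the 10 genes (Dsg1a, Dsg2, Dsc1 and Pkp1) and wholly below for 3 (Dsg3, Dsp and Pkp3). Over all genes tested 51.1% had groups that did not overlap, 17.5% with higher and 33.5% with lower values in Msx2-KO-labelled libraries. Dsg1a, Dsg3, Dsc1 and Pkp1 had an unadjusted p under 0.05 in the same edgeR test, 3 with higher and 1 with lower values, against 18.1% of all genes (5.3% higher and 12.8% lower). With DESeq2 Dsg1a, Dsc1 and Pkp1 were called higher and Dsg3 lower, against 2.59% of genes called higher and 2.82% lower, or 5.41% in all. With limma-trend only Dsg3 was called among the 10, lower, against 9.76% of all genes (1.1% higher and 8.66% lower). Leaving out 1 library at a time, edgeR called 1 member higher without the first WT library (0.607% of all genes) and 1 without the second (0.585%). Without the first Msx2-KO-labelled library it called 3 higher and 2 lower, against 15.1% and 21.5% of all genes, and without the second 4 higher and 2 lower, against 17.3% and 41.8%.

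Dsg3, the basal-layer desmoglein and the target of autoantibodies in pemphigus vulgaris, was at 573 and 575 CPM in the WT HFSC libraries and at 228 and 242 in those labelled Msx2-KO. Both pairs were tight and well apart, a log2 fold change of -1.29 ± 0.23 (SE, n = 2 per group) with an edgeR adjusted p of 0.143, 0.00284 with DESeq2 and 0.0338 with limma-trend. Dsg1a, a desmoglein of the differentiating layers, was at 21.4 and 17.1 CPM in WT against 61.4 and 304.6 in the Msx2-KO-labelled libraries. Its second library labelled Msx2-KO was far above the first, and its log2 fold change of 3.24 ± 0.88 had an edgeR adjusted p of 0.157 (DESeq2 0.00134). Without that second library the log2 fold change was 1.66. Dsg2, the desmoglein of simple epithelia and heart that skin holds at low level, was at 17.5 and 17.1 CPM in WT against 51.1 and 28.2 in the Msx2-KO-labelled libraries, a log2 fold change of 1.20 ± 0.48 (edgeR adjusted p = 0.318).

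Set against each other inside a library, where no scaling between libraries enters, the desmogleins also differed. Dsg3 took 93.7% and 94.4% of the reads of Dsg1a, Dsg2 and Dsg3 in the WT HFSC libraries and 67.0% and 42.1% in those labelled Msx2-KO. The share of Dsg1a was 3.49% and 2.83% in WT against 18.0% and 53.0% in the Msx2-KO-labelled libraries. Reads of Dsg1a per read of Dsg3 were 0.0372 and 0.0299 in WT against 0.269 and 1.26, so the second library labelled Msx2-KO had more reads of Dsg1a than of Dsg3. The share of Dsg1a among Dsg1a, Dsg1b and Dsg1c was 61.2% and 51.7% in WT against 68.0% and 84.4% in the Msx2-KO-labelled libraries. Their sum, which does not depend on how reads were split among the 3, was 34.8 and 33.3 CPM in WT against 90.4 and 361 CPM in the Msx2-KO-labelled libraries.

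Of the desmocollins, Dsc3, which the basal layers use, had overlapping groups in HFSCs. It was at 716 and 724 CPM in WT against 572 and 747 in the Msx2-KO-labelled libraries (log2 fold change -0.13 ± 0.28, edgeR adjusted p = 0.916). Dsc1, the desmocollin of the upper layers, was nearly absent from WT HFSCs at 2.14 and 0.323 CPM, or 16 and 1 counts. It reached 12.9 and 44.1 CPM (118 and 208 counts) in Msx2-KO-labelled libraries, a log2 fold change of 4.42 ± 1.30 with an edgeR adjusted p of 0.183 (DESeq2 0.0174). Even so Dsc3 kept 96.9% and 94.4% of desmocollin reads in those libraries, against 99.5% and 99.6% in WT. Dsc2, the widely expressed desmocollin, had 10 and 7 counts in WT against 50 and 0 in the Msx2-KO-labelled libraries, too few and too uneven to show a direction (log2 fold change 0.61 ± 2.16, edgeR adjusted p = 0.954).

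The plaque genes of HFSCs split as well. Pkp1, a plakophilin best known from the differentiating layers, was at 68.6 and 101 CPM in WT against 188 and 283 in the Msx2-KO-labelled libraries (log2 fold change 1.48 ± 0.35, edgeR adjusted p = 0.143, DESeq2 0.0260). Pkp3, a plakophilin found through all layers, lay the other way, at 119 and 144 CPM in WT against 98.5 and 56.2 (log2 fold change -0.76 ± 0.36, edgeR adjusted p = 0.412). Reads of Pkp1 per read of Pkp3 were 0.576 and 0.701 in WT against 1.91 and 5.03 in the Msx2-KO-labelled libraries, so Pkp3 had more reads in WT and Pkp1 in the others. Dsp was the largest member by far, at 6725 and 7268 CPM in WT against 3287 and 4507 in the Msx2-KO-labelled libraries (log2 fold change -0.84 ± 0.51, edgeR adjusted p = 0.536). Jup was at 194 and 230.2 CPM in WT against 103 and 195 in the Msx2-KO-labelled libraries, which overlap (log2 fold change -0.51 ± 0.39, edgeR adjusted p = 0.657). Reads of Dsp per read of Jup stayed within 23.1 to 34.7 in all 4 HFSC libraries, with overlapping groups.

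**Figure D1:**
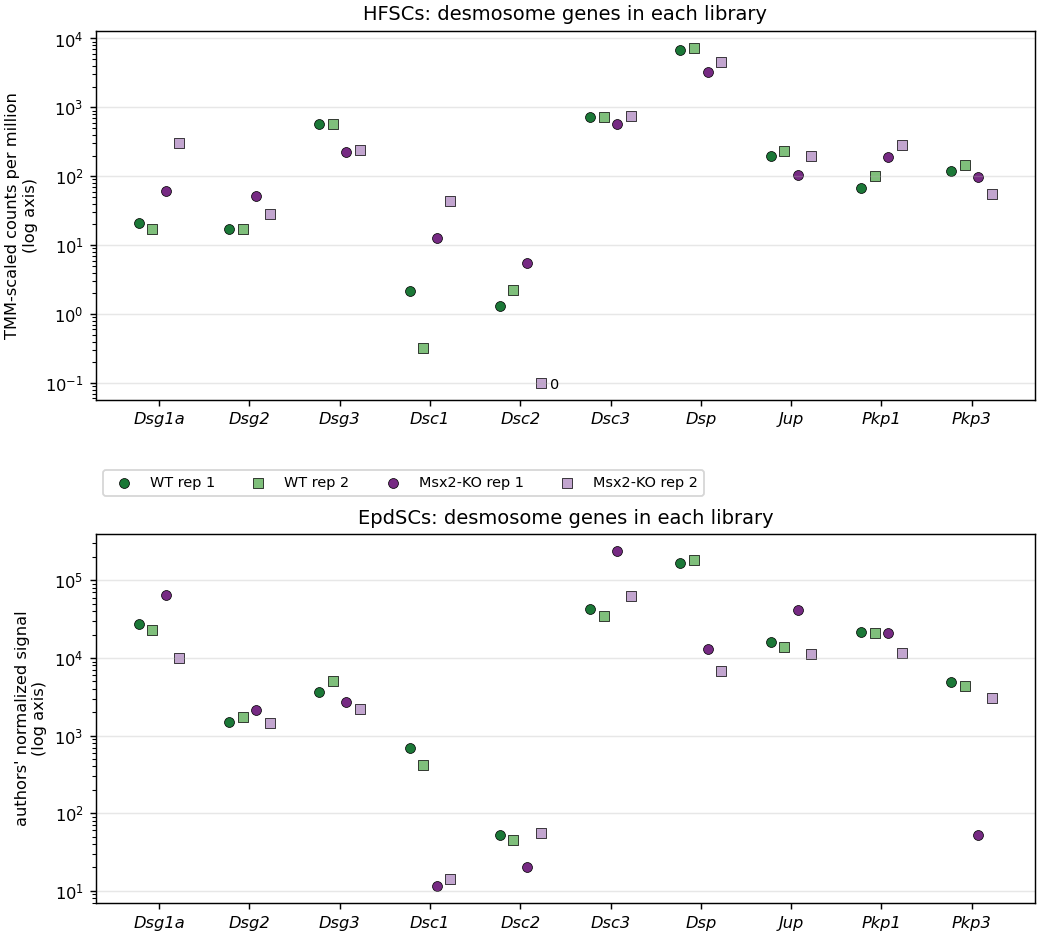
Level of each desmosome gene in every library on log axes, as TMM-scaled CPM in HFSCs (top) and as the authors' normalized signal in EpdSCs (bottom), with green points for WT, purple for Msx2-KO, circles for replicate 1 and squares for replicate 2; the point marked 0 is a value of 0 drawn at the axis floor. Dsg3 separates the genotypes tightly in HFSCs (573 and 575 against 228 and 242), and in EpdSCs Dsp and Dsc1 do so by the widest margins.

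In EpdSCs the test was limma on log2(value + 1), because the deposited values are scaled by the authors. By this test 2 of the 10 genes, Dsp and Dsc1, were called lower and none higher. Over all 16231 genes 9.35% were called, 1.57% higher and 7.78% lower. The same 2 were the ones with an unadjusted p under 0.05, against 35.3% of all genes (12.2% higher and 23.1% lower). The Msx2-KO-labelled libraries lay wholly below WT for 4 of the 10 (Dsg3, Dsc1, Dsp and Pkp3) and wholly above for 1 (Dsc3), against 72.3% of all genes with groups that did not overlap, 44.5% lower and 27.8% higher. The 10 had a median log2 fold change of -0.48, against -0.64 over all genes tested. Dividing each library by the value of a single count gave estimated counts, and edgeR on these, an alternative added after the data were seen, called 0 of the 10 and 0% of 15258 genes. There Dsc1 and Dsp kept log2 fold changes of -5.31 and -4.14 with adjusted p of 0.0604 and 0.0641, and they were again the 2 members with an unadjusted p under 0.05, against 33.9% of all genes. The limma calls also rest on having 2 WT libraries: without the first WT library the limma adjusted p of Dsc1 was 0.288 and that of Dsp 0.360, and without the second 0.268 and 0.357. Without the second Msx2-KO-labelled library 4 of the 10 were called lower and 3 higher, where 40.9% and 23.1% of all genes were.

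Dsp was at 169416 and 182990 in the WT EpdSC libraries and at 13146 and 6759 in those labelled Msx2-KO. The WT mean was 17.7-fold higher, the log2 fold change was -4.22 ± 0.58 (SE, n = 2 per group), and the limma adjusted p was 0.0360. The log2 value kept between -4.76 and -3.74 over all alternatives tried. Jup, which joins the same plaque, was at 16169 and 13968 in WT against 41740 and 11383 in the Msx2-KO-labelled libraries, which lie on either side of WT (log2 fold change 0.54 ± 0.82, limma adjusted p = 0.651). Reads of Dsp per read of Jup were 10.5 and 13.1 in WT against 0.315 and 0.594 in the Msx2-KO-labelled libraries. This ratio needs no scaling between libraries and the groups were far apart. The share of Dsp in the summed signal of the 10 genes was 58.7% and 63.6% in WT against 3.42% and 6.13% in the Msx2-KO-labelled libraries.

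Dsp is also the longest of the 10, with 9659 bases of exon. Among EpdSC genes with a mean value of at least 100, those with more than 8 kb of exon had a median log2 fold change of -0.46 (1894 genes, quartiles -1.65 and 0.56), against 0.03 for 4 to 8 kb (3818 genes), 0.45 for 2 to 4 kb (2709 genes) and -0.07 under 2 kb (1408 genes). The value of Dsp was thus below the lower quartile of genes of its length class. In HFSCs, with the mean at 10 CPM or more, the medians from the longest to the shortest class were -0.30, -0.11, 0.25 and 0.90. The part of transcript length in any single gene's value was not tested.

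Dsc1 was at 695 and 414 in WT EpdSCs and at 11.5 and 14.2 in those labelled Msx2-KO. The WT mean was 43.3-fold higher, with a log2 fold change of -5.29 ± 0.54 and a limma adjusted p of 0.0268, and the log2 value lay between -5.80 and -4.59 over all alternatives. Dsc3 lay the other way, with 42498 and 35015 in WT against 238208 and 63790 in Msx2-KO-labelled libraries. The groups did not overlap, but the first library labelled Msx2-KO was well above the second, and the log2 fold change of 1.68 ± 0.83 did not pass (limma adjusted p = 0.225). Dsc1 per Dsc3 was 0.0164 and 0.0118 in WT against 4.81e-05 and 0.000222 in the Msx2-KO-labelled libraries. Dsc2 was low in all 4, at 53.1 and 44.6 in WT against 20.4 and 55.3 in the Msx2-KO-labelled libraries (log2 fold change -0.52 ± 0.69, limma adjusted p = 0.601).

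The desmogleins of EpdSCs showed no call. Dsg1a, which with Dsc3 was the leading cadherin here, was at 27775 and 23105 in WT, and the Msx2-KO-labelled libraries stood at 64734 and 9860, one above and one below WT (log2 fold change -0.00 ± 1.09, limma adjusted p = 0.998). Dsg3 was at 3660 and 5003 in WT against 2705 and 2195 in the Msx2-KO-labelled libraries (log2 fold change -0.81 ± 0.50, limma adjusted p = 0.296). Dsg3 was thus lower in both Msx2-KO-labelled libraries in each cell type, with no call by the main test in either. Dsg2 was at 1479 and 1752 in WT against 2121 and 1452 in the Msx2-KO-labelled libraries, with overlapping groups (log2 fold change 0.12 ± 0.51, limma adjusted p = 0.867). Dsg2 per Dsg3 was 0.404 and 0.350 in WT against 0.784 and 0.661 in the Msx2-KO-labelled libraries, and in HFSCs the same ratio was 0.0305 and 0.0298 against 0.224 and 0.116, so the Msx2-KO-labelled libraries were the higher ones in both cell types.

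Neither plakophilin was called in EpdSCs. Pkp1 was at 21867 and 20982 in WT against 21193 and 11687 in the Msx2-KO-labelled libraries (log2 fold change -0.44 ± 0.55, limma adjusted p = 0.577). Pkp3 was at 4896 and 4307 in WT, at 52.2 in the first library labelled Msx2-KO and at 3053 in the second, and its log2 fold change of -3.51 ± 2.17 had a limma adjusted p of 0.298. The 2 Msx2-KO-labelled libraries thus differed from each other more than the second differed from WT. The same first library stood at 38.2 for Ctsd, the lysosomal protease cathepsin D, against 1643 in the second and 2286 and 1867 in WT.

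**Figure D2:**
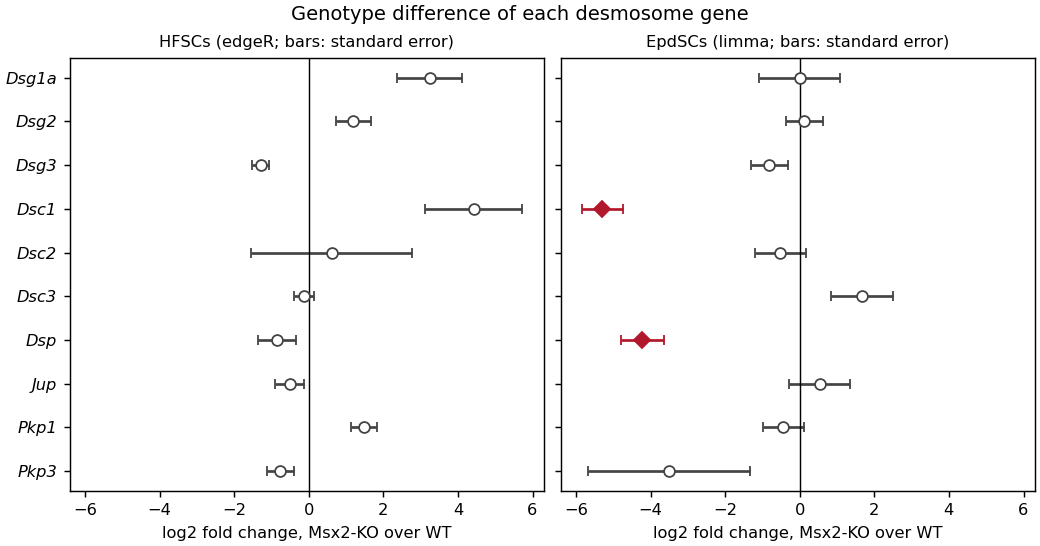
Log2 fold change of Msx2-KO over WT for each desmosome gene in HFSCs (edgeR, left) and EpdSCs (limma, right), with bars for the standard error from 2 libraries per group and filled red diamonds for genes that passed the call. Dsc1 lies at 4.42 in HFSCs and -5.29 in EpdSCs, and Dsp and Dsc1 in EpdSCs are the 2 genes that passed by limma.

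Dsc1 lay on opposite sides in the 2 cell types, higher in both HFSC Msx2-KO-labelled libraries and lower in both EpdSC Msx2-KO-labelled libraries. Its log2 fold changes were 4.42 and -5.29, of which only the second passed its main test. The 2 tables were normalized separately and by different steps, so the difference between them was not tested. Dsp was lower in both cell types but by different amounts (log2 fold changes -0.84 and -4.22), and Pkp3 was lower in both (-0.76 and -3.51). The EpdSC value of Pkp3 rests on 1 library: it was -0.59 without the first Msx2-KO-labelled library and -6.43 without the second. Neither difference was tested.

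**Figure D3:**
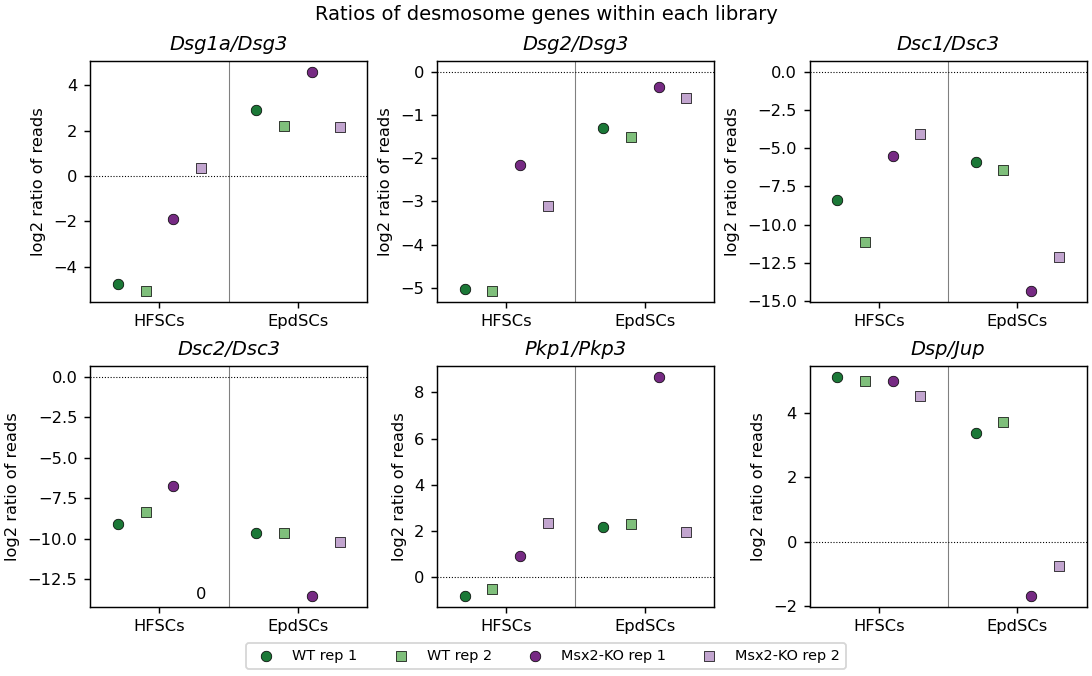
Log2 ratio of reads of paired desmosome genes within each library (green WT, purple Msx2-KO, circles replicate 1, squares replicate 2), with HFSCs left and EpdSCs right in each panel and a dotted line where the pair is equal; the 0 marks a library with no reads of Dsc2. Dsp per Jup stays between 23.1 and 34.7 on the linear scale in HFSCs and is 10.5 and 13.1 in WT EpdSCs against 0.315 and 0.594 in those labelled Msx2-KO, while Dsg1a per Dsg3 and Pkp1 per Pkp3 separate the genotypes in HFSCs.

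Levels were compared between genes as value per kb of exon. In WT HFSCs Dsp led at a mean of 724 CPM per kb, followed by Dsc3 at 133 and Dsg3 at 82.2. Pkp3 at 36.4 and Jup at 32.9 did not differ beyond their spread, Pkp1 followed at 16.9, and Dsg1a and Dsg2 were at 3.38 and 2.09. Dsc2 and Dsc1 were last and overlapped. In HFSCs labelled Msx2-KO Dsp (403 CPM per kb) and Dsc3 (122) kept the first places, Pkp1 came next at 46.8, and Dsg3 (33.7), Dsg1a (32.2), Jup (23.2) and Pkp3 (21.4) overlapped each with the next.

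In WT EpdSCs the order per kb was Dsp at 18242, Dsc3 at 7173, then Dsg1a at 4474 and Pkp1 at 4264, which overlapped, then Jup at 2341, Pkp3 at 1273, Dsg3 at 621, Dsg2 at 195, Dsc1 at 110 and Dsc2 at 9.25. Dsg1a was thus far above Dsg3 in EpdSCs and far below it in WT HFSCs. In EpdSCs labelled Msx2-KO Dsc3 came first at 27947 per kb, and Dsp, at 1030, stood at rank 5. As a share of the 10 genes per kb, Dsp was 44.6% and 49.8% in WT against 2.00% and 3.56% in the Msx2-KO-labelled libraries, while Dsc3 was 20.0% and 17.0% in WT against 64.6% and 60.0% in the Msx2-KO-labelled libraries. In HFSCs Dsp held 70.0% and 70.3% in WT against 58.7% and 57.8% in the Msx2-KO-labelled libraries.

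**Figure D4:**
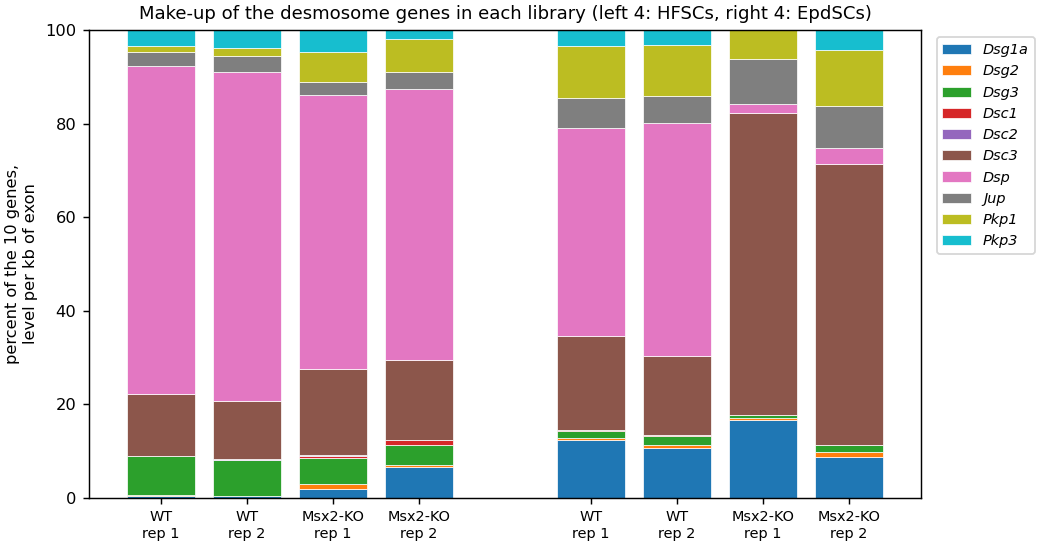
Percent of the summed level per kb of exon that each of the 10 desmosome genes takes in each of the 8 libraries, stacked to 100, with HFSCs left and EpdSCs right. Dsp fills 57.8% to 70.3% of every HFSC bar and 44.6% and 49.8% of the WT EpdSC bars, but 2.00% and 3.56% of the EpdSC bars labelled Msx2-KO, where Dsc3 fills 64.6% and 60.0%.

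Other desmosome-associated genes were taken from a fixed list of 10, of which 7 were tested in HFSCs and 8 in EpdSCs. In HFSCs none was called, where edgeR called 0% of all genes. The median log2 fold change was 0.52, with 5 values positive and 2 negative. Of the 10, 3 lay wholly above WT and 4 wholly below, against 17.5% and 33.5% of all genes tested. The lower ones were Perp, Evpl and the untested Dsg1c and Dsg4. Dsg1b (11.9 and 15.5 CPM in WT against 29.0 and 56.5), Cdsn (corneodesmosin, of the cornified layer) and Kazn (kazrin) lay wholly above WT, with log2 fold changes of 1.64, 2.61 and 2.08, and are named after their values were seen. The 3 most abundant were lower in level or overlapped. Ppl (periplakin, a plakin that links the cornified envelope to desmosomes and keratin) had a log2 fold change of 0.02, Evpl (envoplakin, its partner) -0.15 and Perp (a tetraspan desmosomal membrane protein) -0.41, with edgeR adjusted p of 0.988, 0.856 and 0.584. In EpdSCs 2 of the 8, Ppl and Dsg1b, were called lower by limma and none higher, against 7.78% and 1.57% of all genes, with a list median of -1.95. Neither was called by edgeR on the recovered counts (adjusted p = 0.0681 and 0.0604). Ppl was at 26692 and 27059 in WT against 344 and 1112 in the Msx2-KO-labelled libraries (log2 fold change -5.44 ± 0.76, limma adjusted p = 0.0374). Dsg1b was at 4199 and 3639 in WT against 209 and 138 in the Msx2-KO-labelled libraries (log2 fold change -4.52 ± 0.51, limma adjusted p = 0.0281), while its near-identical neighbour Dsg1a had no call.

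Evpl narrowly missed the threshold in EpdSCs, at 16605 and 16930 in WT against 16.6 and 243 in the Msx2-KO-labelled libraries (log2 fold change -8.00 ± 1.45, limma adjusted p = 0.0556). Like Dsp, both are plakins. Ppl and Evpl have 6893 and 6384 bases of exon. Perp lay the other way in EpdSCs, at 40224 and 34019 in WT against 269508 and 166709 in Msx2-KO-labelled libraries, and also missed the threshold (log2 fold change 2.52 ± 0.53, limma adjusted p = 0.0681).

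The neighbours of the desmosome were read in the same way. Of the keratins it anchors, none of 9 tested was called in HFSCs, where edgeR called 0% of all genes. None of 10 was called in EpdSCs, where limma called 9.35% of all genes. The keratin medians were 0.29 in HFSCs and 0.00 in EpdSCs on the log2 scale. These medians hold differences in both directions. In HFSCs 5 of 10 lay wholly above WT and 5 wholly below, against 17.5% and 33.5% of all genes. Krt1, Krt77 and Krt17 had 5.36, 4.72 and 1.79 there (DESeq2 adjusted p 5.79e-12, 2.44e-07 and 0.00124), and Krt6a had -1.97 (0.0339). In EpdSCs 4 lay wholly above WT and 3 wholly below, against 27.8% and 44.5% of all genes. Krt14, the basal keratin, was at 639 and 668 CPM in WT HFSCs and at 859 and 737 in those labelled Msx2-KO, and at 71869 and 84155 against 392157 and 275191 in EpdSCs (limma adjusted p = 0.0832). Krt5, its partner, had log2 fold changes of -0.72 in HFSCs and 0.36 in EpdSCs. Krt15, abundant in the bulge, had -0.88 and 1.21.

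None of the 10 adherens junction genes was called in either cell type, with medians of -0.24 in HFSCs and -0.05 in EpdSCs. The main tests called 0% of all HFSC genes and 9.35% of all EpdSC genes. In HFSCs 0 of the 10 lay wholly above WT and 6 wholly below, against 17.5% and 33.5% of all genes. In EpdSCs 4 lay wholly above WT and 2 wholly below, against 27.8% and 44.5%. Cdh1 (E-cadherin), the classical cadherin of the same cells, had log2 fold changes of -0.04 and 0.31, and its values overlapped in HFSCs (287 and 232 CPM against 311 and 194). Afdn, which links nectins to actin, had -0.98 in HFSCs, and Ctnna1 (alpha-catenin) -0.97. In EpdSCs Nectin1 had 1.95 (limma adjusted p = 0.0904) and Ctnnb1 (beta-catenin) 1.29 (limma adjusted p = 0.196).

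Among 10 genes known to regulate desmosome genes the main tests called none in either cell type, with medians of 1.38 in HFSCs and -0.15 in EpdSCs. In EpdSCs limma called 9.35% of all genes, and in HFSCs edgeR called 0% and DESeq2 5.41%. DESeq2 gave an adjusted p of 0.00106 for Zfp750, 0.00594 for Grhl1 and 0.00817 for Klf4. Their edgeR log2 fold changes were 4.37, 2.38 and -2.12. Trp63, the transcription factor of the stratified epithelial lineage, had log2 fold changes of 0.05 and 0.77. Klf4, a factor of barrier formation, had -2.12 in HFSCs, where its WT libraries were at 422 and 1505 CPM and those labelled Msx2-KO at 210 and 232, and -1.39 in EpdSCs. Grhl2, which regulates epithelial junction genes, had -0.27 in HFSCs, and Klf5 had 0.22 in EpdSCs. None of the proteases and inhibitors that act on desmosomes was called by the main tests either (7 tested in HFSCs, 9 in EpdSCs, medians -0.70 and -1.33). These tests called 0% of all HFSC genes and 9.35% of all EpdSC genes. The protease Klk7 had 6 and 0 counts in WT HFSCs against 192 and 69 in those labelled Msx2-KO. Its edgeR log2 fold change was 5.24 (edgeR adjusted p = 0.213, DESeq2 0.0200). In HFSCs Ctsd had 1.45, Ctsl (cathepsin L) -1.29 and Spink5 (a serine protease inhibitor of the upper epidermis) -0.96. In EpdSCs Ctsd had -3.03 ± 2.01, and the sheddases Adam17 and Adam10 both had 0.31.

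Markers of other skin cells differed with genotype in the same libraries. In bulk samples fewer cells of a type and less RNA per cell cannot be told apart. The 10 suprabasal markers summed to 597 and 611 CPM in WT HFSCs and to 1094 and 3416 in those labelled Msx2-KO. The second library labelled Msx2-KO was highest for this sum, as it was for Dsg1a, Dsc1 and Pkp1. Of the 10, 6 lay wholly above WT and 1 wholly below, and Lor was at 0 in at least 1 library. Over all genes tested in HFSCs 17.5% lay wholly above WT and 33.5% wholly below. Krt10, the classical suprabasal keratin, was at 34.8 and 18.7 CPM in WT against 404 and 1625 in those labelled Msx2-KO. It did not pass by edgeR (adjusted p = 0.143, the smallest that edgeR gave any HFSC gene). DESeq2, which called 5.41% of all genes, gave it an adjusted p of 3.1e-13.

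In EpdSCs the same 10 markers summed to 297451 and 212726 in WT and to 48618 and 76661 in Msx2-KO-labelled libraries. Sbsn and Ivl were called lower, with log2 fold changes of -3.41 and -5.71 (limma adjusted p = 0.0388 and 0.0368), 7 of the 10 lay wholly below WT, and Flg was at 0 in at least 1 library. Over all EpdSC genes 7.78% were called lower and 44.5% lay wholly below WT. Dsc1 thus lay on the same side as the suprabasal sum in both cell types. Dsg1a did so in HFSCs but had overlapping groups in EpdSCs. The part of suprabasal cells in these differences was not tested.

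Sebaceous markers summed to 36.3 and 34.9 CPM in WT HFSCs and to 1589 and 1197 in those labelled Msx2-KO. All 7 measured markers lay wholly above WT, against 17.5% of all genes tested, and Cidea and Elovl3 were at 0 in at least 1 library. In EpdSCs the 4 measured ones summed to 5129 and 5345 in WT and to 138600 and 15074 in Msx2-KO-labelled libraries. Most of the 138600 was Fabp5, at 1279 and 697 in WT against 114773 and 4821 in the Msx2-KO-labelled libraries. Of the 4 markers 3 lay wholly above WT and 1 wholly below, against 27.8% and 44.5% of all genes. The first EpdSC library labelled Msx2-KO, highest in the sebaceous sum, was also the highest for Dsc3, Jup and Dsg1a and the lowest for Pkp3. Bulge markers summed to 9305 and 8701 CPM in WT HFSCs and to 4452 and 4821 in those labelled Msx2-KO. Of these 7 of 8 lay wholly below WT, against 33.5% of all genes tested, and Dsg3 and Dsp lay on that side too. In EpdSCs the bulge sum went with the other genotype, at 81728 and 98461 in WT against 242531 and 188304, while Dsg3 and Dsp were again lower. Krt15 made most of that EpdSC sum, at 79951 and 96241 in WT against 230109 and 177798. Of the 7 bulge markers measured there 4 lay wholly above WT and 0 wholly below, against 27.8% and 44.5% of all genes. Lhx2 and Sox9 had overlapping groups with log2 fold changes of -1.06 and -0.23. Postn (periostin, a bulge marker) was called higher there (limma log2 fold change 4.32, adjusted p = 0.0281), as were 1.57% of all EpdSC genes. Basal and infundibular markers summed to 178418 and 208151 in WT EpdSCs against 966098 and 475769 in those labelled Msx2-KO. Of these markers 5 of 8 lay wholly above WT and 2 wholly below, against 27.8% and 44.5% of all genes. In HFSCs they summed to between 3120 and 3712 CPM in all 4 libraries. This flat sum held opposite differences, with 4 of 7 markers wholly above WT and 2 wholly below, against 17.5% and 33.5% of all genes tested. Krt79 was at 16.0 and 5.50 CPM in WT HFSCs against 584 and 531, and Krt5 at 2467 and 2548 against 1537 and 1502. Cycling-cell markers summed to 45.0 and 55.3 CPM in WT HFSCs and to 557 and 384 in those labelled Msx2-KO. In EpdSCs the cycling sum overlapped (3630 and 2931 against 7586 and 2780), and Cdk1, a mitotic kinase, was called higher (limma log2 fold change 4.13, adjusted p = 0.0416). The markers lay on both sides, with 4 of 6 wholly above WT and 1 wholly below, against 27.8% and 44.5% of all genes. The lower one, Mki67, was the most abundant, at 2517 and 2055 in WT against 7.64 and 294 (log2 fold change -5.49, limma adjusted p = 0.138). Immune markers were few, 4.85 to 20.2 CPM in HFSCs, and in EpdSCs they summed to 767 and 56.0 in WT and to 2.55 and 4.04 in Msx2-KO-labelled libraries. The part of these cells in the desmosome values was not tested.

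**Figure D5:**
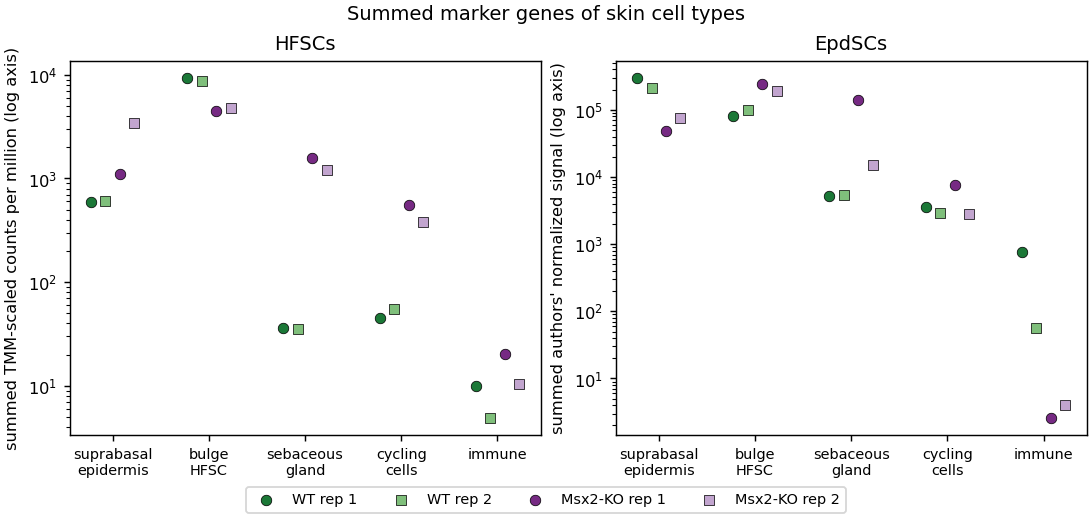
Summed level of 5 marker lists in each library on log axes, as TMM-scaled CPM in HFSCs (left) and the authors' normalized signal in EpdSCs (right), with green for WT, purple for Msx2-KO, circles for replicate 1 and squares for replicate 2. The suprabasal sum is higher in the HFSC Msx2-KO-labelled libraries (1094 and 3416 against 597 and 611) and lower in the EpdSC ones (48618 and 76661 against 297451 and 212726). The sebaceous sum is higher in both cell types, though 1 of its EpdSC markers, Plin2, lay below WT. Fabp5 alone gave 114773 of the 138600 in the first EpdSC library labelled Msx2-KO.

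The summed level of the 10 genes itself was 8438 and 9079 CPM in WT HFSCs and 4608 and 6408 in those labelled Msx2-KO, wholly below WT. Without Dsp the sum was 1713 and 1811 CPM in WT against 1320 and 1900 in the Msx2-KO-labelled libraries, which overlap. In EpdSCs the sum was 288508 and 287580 in WT against 383931 and 110248 in the Msx2-KO-labelled libraries, and without Dsp 119092 and 104590 against 370786 and 103489. Neither EpdSC sum separated the genotypes in 1 direction. With 2 libraries against 2, the smallest two-sided p that an exact permutation test can give is 0.33, so no test is given for these sums or for the ratios.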

How the data were processed

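RNA-seq libraries of sorted HFSCs and EpdSCs (8 libraries) were made by the authors with a SMARTer Stranded kit for total RNA (v3), and reads were aligned with STAR 2.7.3a in Partek Flow to GRCm38/mm10 with GENCODE annotation. The HFSC table deposited by the authors holds estimated counts, some of them fractional, and these were rounded. The EpdSC table deposited by the authors holds signal, estimated counts divided by 1 factor per library (0.674 to 1.2734 for a single count). After division by these, 73.0% to 81.8% of values above 0 and under 200 counts were whole within 0.02, against 72.4% to 90.2% in the HFSC table, so estimated counts with fractions were recovered and whole reads were not for the rest. Deposited tables of the authors' own comparisons (ratios, p-values, false discovery rates and fitted means) were not used.

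Groups came from the labels. HFSCs were tested with edgeR 4.0.16 (quasi-likelihood, TMM, filterByExpr, 14422 genes), and EpdSCs with limma 3.58.1 on log2(value + 1), 16231 genes, where fold changes of low genes are understated. P-values were adjusted over all genes by Benjamini-Hochberg. A call needed an adjusted p under 0.05 and a change over 2-fold. The members and lists were chosen with earlier results of these data known. Named genes were all 10 members, of each other list the 3 most abundant and any called gene, and Msx2. Lists of cell type markers are given by their sums and called genes instead, and Krt10, Cd34 and Ly6a are named as defining markers. Alternatives included DESeq2 1.42.0, limma-trend, other scalings, filters and pseudocounts (0.1 and 10), a replicate block leaving out each library and, added after seeing the data, edgeR on the recovered EpdSC counts. The fits were tested on simulated data with less spread than the HFSC libraries. That check does not show how many real differences are called at the HFSC spread. The HFSC libraries spread widely (common dispersion 0.823), which limits what any count of HFSC calls shows. Exon lengths are unions of GENCODE M21 exons, and positions in that release equal those in the files. The depth, HFSC totals of 3132970 to 11016700, limits Dsc1 and Dsc2 most, and depth of the EpdSC libraries is approximate (15200000 to 21100000). Ctsd was also described for its first EpdSC library labelled Msx2-KO after its values were seen. Zfp750, Grhl1, Klk7, Krt1, Krt6a, Krt17, Krt77, Krt79, Mki67, Plin2, Fabp5, Lhx2 and Sox9 were likewise named after their values were seen.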

Additional observations from a re-analysis of the deposited data

Results flagged for a closer look

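Dsc1 differed in direction between the cell types. Its log2 fold change was 4.42 in HFSCs and -5.29 in EpdSCs, and in each cell type both libraries labelled Msx2-KO lay on the same side of both WT libraries. The difference between the cell types was not tested, since the 2 tables were normalized separately. The WT HFSC value rests on 16 and 1 counts, and leaving out 1 library gave 6.36 without the first WT library, 3.65 without the second, 4.83 without the first library labelled Msx2-KO and 3.13 without the second. The same 4 values in EpdSCs lay between -5.66 and -4.92. By edgeR on the recovered EpdSC counts the value was -5.31 (adjusted p = 0.0604).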

How the results depend on the processing

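In HFSCs the count of members called depended on the test. The main test called 0 higher and 0 lower, DESeq2 called 3 higher and 1 lower, limma-trend 1 lower, and a replicate block 1 higher. Leaving out 1 library gave 1 to 4 called higher and 0 to 2 lower (Dsg1a was the one called higher without either WT library, and Dsg1a, Dsc1 and Pkp1 were all called without either library labelled Msx2-KO). The median log2 fold change of the 10 members, 0.24, became -0.27 with limma-trend, -0.50 with library totals and -0.36 with the replicate block. With at least 10 counts in every library it was -0.23, over the 8 members left (without Dsc1 and Dsc2), whose median in the main test was -0.32. In addition library totals shifted the median of all genes by -0.86. Library totals put 5 members wholly below WT in place of 3. Dsc2 reversed to -0.39 with limma-trend, -0.0033 with library totals and -1.41 with the block, and Dsc3 to 0.026 without the first library labelled Msx2-KO (-0.34 without the second).

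In EpdSCs the 2 calls became 1 under the replicate block, where Dsp missed (adjusted p = 0.0505). They became 0 without either WT library, and without the second library labelled Msx2-KO there were 4 lower and 3 higher, a range of 0 to 4 lower and 0 to 3 higher. By edgeR on the recovered counts, added after seeing the data, they also became 0, and Dsg1a reversed to 0.47. Dsg2 reversed to -0.14 with library totals, -0.41 with totals without mitochondrial and ribosomal RNA genes and -0.15 without the first library labelled Msx2-KO (0.40 without the second). Jup reversed to -0.00019 with those same reduced totals and to -0.40 without that library (1.47 without the second), Dsc2 to 0.18 without it (-1.22 without the second), and Dsg1a to 0.13 without the first WT library and 1.35 without the second labelled Msx2-KO (-1.36 without the first). A library left alone in its group was assumed to vary like the others. Same-numbered replicates did not deviate together (correlation of deviations -0.035 in HFSCs and -0.023 in EpdSCs), so the numbers are taken as names only. The causes were not tested.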
